A study of Mus musculus with 6 samples.

Results

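The 10 genes described here are classical targets that STAT3 induces in the acute-phase response, taken by symbol from the deposited table, and all 10 were found among its 46095 gene symbols. They are the transcription factor genes Cebpb, Cebpd and Myc, the transcriptional cofactor gene Bcl3, the kinase gene Pim1, and the genes of secreted or surface proteins Serpina3n, Lcn2, Hp, Lbp and Fgl2. RNA was sequenced from 6 mouse hearts, 3 from STAT3cKO mice (replicates 3, 6 and 91), in which STAT3 had been deleted in cardiomyocytes only, and 3 from wild-type mice (replicates 1, 3 and 4). Strain, age, sex and treatment are not stated in the labels, which also give neither the Cre line nor whether each library is a separate animal. If the libraries are not separate animals, the p-values cover no more than the variation among the 6 samples, part of which could be technical. Other cells of the heart keep the gene, and in RNA from whole hearts fewer cells of a type and less RNA per cell cannot be told apart.

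STAT3 is phosphorylated by JAK kinases when a cytokine of the interleukin-6 family binds a receptor that contains gp130, and the activated dimer moves to the nucleus and binds palindromic sites. In liver this drives the acute-phase response, in which hepatocytes secrete proteins such as haptoglobin and LPS-binding protein, and C/EBP-beta and C/EBP-delta act with STAT3 on many of the same genes. In the heart the pathway is known for its part in cardiomyocyte survival and in the response to injury, and several of the same genes are also made by macrophages, neutrophils, fibroblasts and fat cells.

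The window from 250 bases before to 50 bases after the annotated start site was available for 6 of the 10 genes (RefSeq, GRCm38.p6), and not for Hp, Lbp, Cebpd and Myc. It was searched on both strands for the STAT-type palindrome TTCNNNGAA, the C/EBP-type palindrome TTGCNNAA and the E-box CACGTG. Stricter forms of the palindromes, TTCCNGGAA and TTGCGCAA, whose matches are also matches of the looser forms, were searched as well. The windows of Cebpb, Fgl2 and Lcn2 are shown because they stand for a gene whose RNA rose, a gene with a STAT-type match and a gene with a C/EBP-type match. Capitals mark the matches, and each sequence runs 5′ to 3′ along the gene's own strand. Cebpb lies on the plus strand at chr2:167688665-167688964, Fgl2 on the plus strand at chr5:21372423-21372722 and Lcn2 on the minus strand at chr2:32387690-32387989.
Cebpb: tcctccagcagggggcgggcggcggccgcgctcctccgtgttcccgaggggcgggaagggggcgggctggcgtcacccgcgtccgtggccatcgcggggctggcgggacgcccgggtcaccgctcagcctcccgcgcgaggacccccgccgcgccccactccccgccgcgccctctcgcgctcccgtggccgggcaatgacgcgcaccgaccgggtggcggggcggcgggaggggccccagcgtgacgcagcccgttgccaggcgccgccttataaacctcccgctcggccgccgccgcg
Fgl2: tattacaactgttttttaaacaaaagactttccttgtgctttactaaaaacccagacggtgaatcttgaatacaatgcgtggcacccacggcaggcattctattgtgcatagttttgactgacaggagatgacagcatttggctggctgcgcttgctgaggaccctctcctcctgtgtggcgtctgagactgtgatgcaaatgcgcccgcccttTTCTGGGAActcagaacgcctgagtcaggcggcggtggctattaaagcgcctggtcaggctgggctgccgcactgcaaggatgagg
Lcn2: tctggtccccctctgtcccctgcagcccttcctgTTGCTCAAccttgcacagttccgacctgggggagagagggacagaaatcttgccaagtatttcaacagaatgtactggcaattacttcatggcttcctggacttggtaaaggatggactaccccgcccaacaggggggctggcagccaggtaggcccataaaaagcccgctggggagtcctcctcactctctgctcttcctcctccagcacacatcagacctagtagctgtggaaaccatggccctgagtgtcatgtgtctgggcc
The Fgl2 match (TTCTGGGAA) begins at position -36 from the start site, and the Lcn2 match (TTGCTCAA) at position -216. None of these motifs occurred in the windows of Cebpb, Serpina3n and Bcl3 or in the first of the Pim1 windows, while the second Pim1 window held 1 E-box. Among all 32851 windows of this length, 8.3% held TTCNNNGAA, 1.15% TTCCNGGAA, 10.8% TTGCNNAA, 0.183% TTGCGCAA and 7.15% CACGTG. The matches describe these windows only.

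Total counts ran from 15416877 to 17867944 in STAT3cKO hearts and from 16168682 to 18264052 in wild-type hearts. Stat3 itself, read as CPM (counts scaled to the library total with TMM factors), stood at 52.9, 63.7 and 59.6 CPM in STAT3cKO replicates 3, 6 and 91, against 99.7, 85.8 and 97.5 CPM in wild type replicates 1, 3 and 4. The groups did not overlap, and the difference on the log2 scale was -0.68 ± 0.10 (SE; edgeR adjusted p = 0.000677), or -0.43 when a trend on transcript length and GC content was removed from each heart (adjusted p = 0.00811). That trend differed between the groups: log2 CPM changed by -0.110, -0.0823 and -0.114 per doubling of transcript length in the STAT3cKO hearts and by 0.0476, 0.109 and 0.149 in the wild-type hearts, relative to the gene's mean over all hearts. Summed cardiomyocyte markers were at 73064 to 81563 CPM in STAT3cKO hearts and 58970.5 to 64483 CPM in wild-type hearts, so both groups carried the label's tissue. The sums did not overlap. Of the 10 markers, 4 were higher and 1 was lower in STAT3cKO hearts (edgeR adjusted p under 0.05). With the correction for length and GC content 3 were higher and 0 lower. The part of cardiomyocyte content in the values below was not tested.

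Of the 10 genes, 2 rose in STAT3cKO hearts, 0 fell and 8 did not pass (edgeR quasi-likelihood test, adjusted p under 0.05 over all 14484 genes tested). The 2 that rose were Cebpb and Cebpd, the C/EBP factors of the set. All 10 passed the filter on low counts. Over all genes tested, 25.8% were called, 13.2% as higher and 12.6% as lower, so the share called among the 10 genes was no larger than that of the table as a whole. For 4 of the 10 every STAT3cKO heart was above every wild-type heart, and the groups did not overlap in either direction for 43% of all genes tested. The median log2 fold change was 0.18 over the 10 genes and 0.00 over all genes tested. Leaving out 1 heart at a time gave 0 to 2 calls among the 10, with 0 without STAT3cKO replicate 6 or wild type replicate 1.

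**Figure D1:**
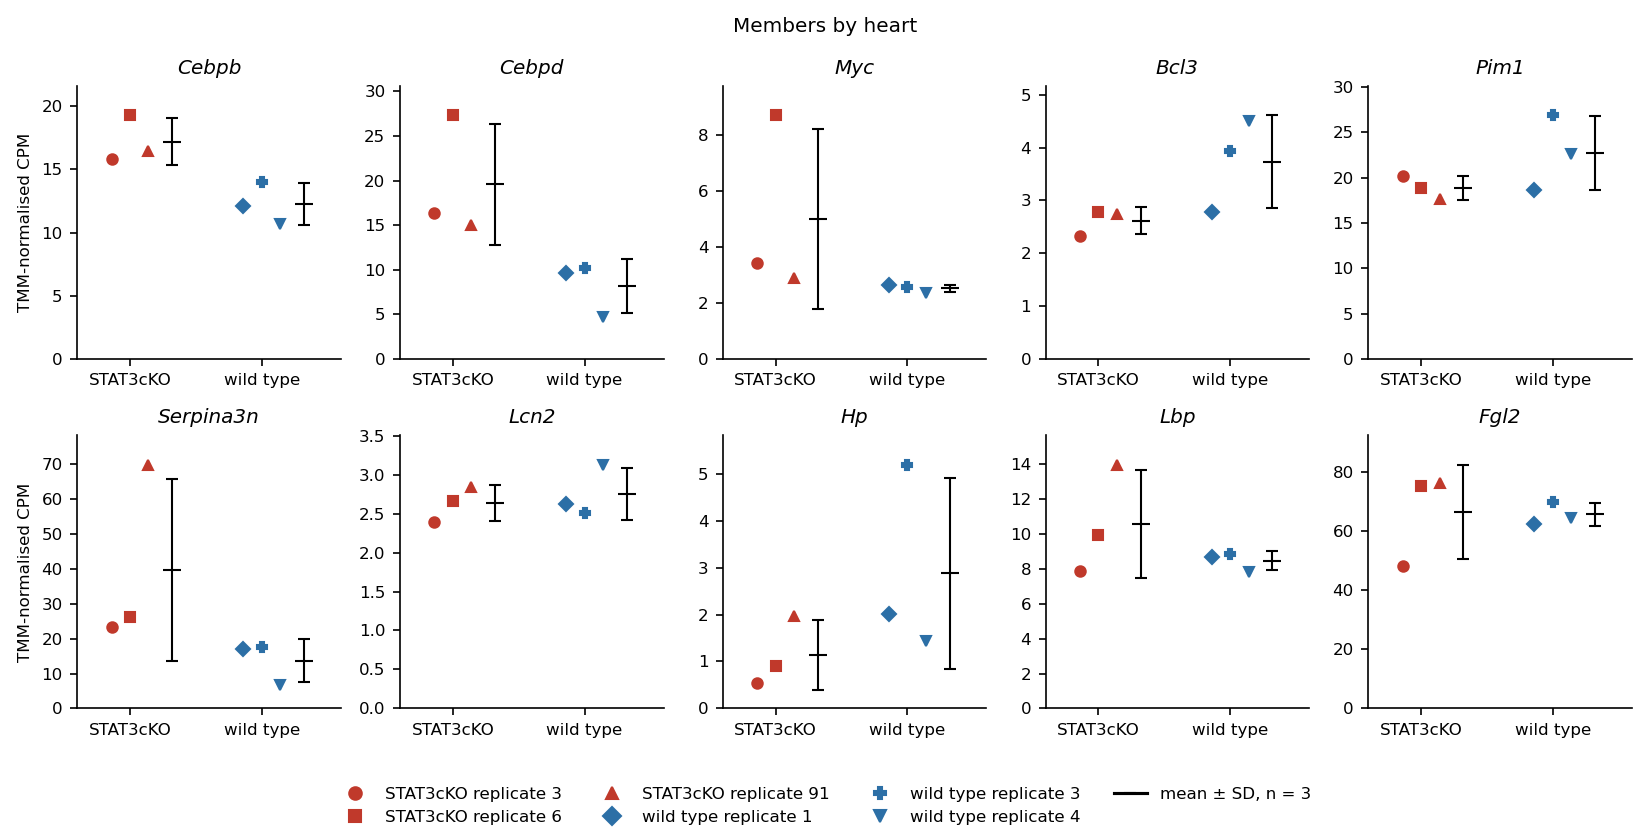
Level of each of the 10 genes in TMM-normalised CPM (vertical axes, each starting at 0) in the 3 STAT3cKO hearts (red) and the 3 wild-type hearts (blue), with 1 point for each heart and the mean ± SD beside it. Cebpb, Cebpd, Myc and Serpina3n have every STAT3cKO heart above every wild-type heart, and Myc and Serpina3n each have 1 STAT3cKO heart far above the other 2.

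Cebpb encodes C/EBP-beta, a leucine zipper factor first known as the nuclear factor of interleukin-6. Cebpb stood at 15.8, 19.3 and 16.4 CPM in STAT3cKO replicates 3, 6 and 91, against 12.1, 14.0 and 10.7 CPM in wild type replicates 1, 3 and 4. Every STAT3cKO heart was above every wild-type heart, and the spread within both groups was small. The means were 17.2 ± 1.84 CPM in STAT3cKO hearts and 12.3 ± 1.64 CPM in wild-type hearts (SD, n = 3 each), and the difference was 0.49 ± 0.14 on the log2 scale (SE; 95% interval 0.19 to 0.78; edgeR adjusted p = 0.0203). Cebpb no longer passed without STAT3cKO replicate 6 (adjusted p = 0.0527), wild type replicate 1 (0.0628) or wild type replicate 4 (0.0851), and with scaling by library size only (0.0704). With a correction for length and GC content the log2 fold change was 0.31 (edgeR adjusted p = 0.174). Cebpb is a single-exon gene on chromosome 2 (167688915 to 167690432, plus strand, GRCm38.p6). In GENCODE it overlaps Tmem189 on the opposite strand, and whether counting used strand is not given in the sources used here. Tmem189 went the other way (log2 fold change -0.31, edgeR adjusted p = 0.0423).

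Cebpd encodes C/EBP-delta, a partner of C/EBP-beta that is low in resting cells and induced quickly by cytokines and glucocorticoids. Cebpd stood at 16.4, 27.3 and 15.0 CPM in STAT3cKO replicates 3, 6 and 91, against 9.68, 10.1 and 4.72 CPM in wild type replicates 1, 3 and 4. The groups did not overlap, STAT3cKO replicate 6 was well above the other STAT3cKO hearts, and wild type replicate 4 was below the other wild-type hearts. The log2 fold change was 1.26 ± 0.36 (SE; 95% interval 0.40 to 2.12; edgeR adjusted p = 0.0457). Removing the length and GC trend left it at 1.35 (adjusted p = 0.0483). It did not pass when any 1 heart other than wild type replicate 4 was left out (adjusted p from 0.0591 to 0.0801), and it was at 0.94 without STAT3cKO replicate 6. The 3′ end of Cebpd (chromosome 16, 15887286 to 15889545) overlaps the 3′ end of Spidr on the opposite strand, which held 61 to 77 counts in STAT3cKO hearts and 62 to 78 in wild-type hearts, fewer than Cebpd in every heart.

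Cebpb and Cebpd followed each other from heart to heart. Pearson's r of their log2 CPM was 0.97 over the 6 hearts and 0.90 for the deviations from the group means, the highest of all pairs of the 10 genes by either measure. Both values are descriptions, since the points share libraries. Of 7 listed relatives and regulators, 6 were tested, 0 were higher and 1 was lower, with a median log2 fold change of -0.11. Cebpa, the family member of resting fat and liver cells, was at 1.71, 3.64 and 4.71 CPM in STAT3cKO hearts and 3.86, 4.53 and 3.89 CPM in wild-type hearts. Ddit3, which encodes the stress factor CHOP, did not pass (log2 fold change 0.37, edgeR adjusted p = 0.226), but without STAT3cKO replicate 6 it was called higher (log2 fold change 0.60, adjusted p = 0.00774) and was then the 1 call of the list. The 1 that fell was Trib2, a pseudokinase that promotes breakdown of C/EBP-alpha, at 33.9 ± 3.17 CPM in STAT3cKO hearts and 43.9 ± 4.42 CPM in wild-type hearts (log2 fold change -0.38 ± 0.11, adjusted p = 0.0242, and 0.115 with a correction for length and GC content). The Trib2 call was also lost without STAT3cKO replicate 6 or 91 or wild type replicate 1 or 4 (adjusted p from 0.0517 to 0.0954).

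Myc encodes a growth-promoting transcription factor that pairs with Max. Myc stood at 3.41, 8.70 and 2.90 CPM in STAT3cKO replicates 3, 6 and 91, against 2.63, 2.57 and 2.36 CPM in wild type replicates 1, 3 and 4. The raw counts were 50, 134 and 53 in STAT3cKO hearts and 51, 43 and 43 in wild-type hearts. The wild-type hearts lay close together, and STAT3cKO replicate 6 stood far above the other STAT3cKO hearts. The Myc log2 fold change of 0.98 ± 0.39 (SE) did not pass (edgeR adjusted p = 0.0899). It was 0.32 without STAT3cKO replicate 6 (adjusted p = 0.393) and 1.28 without STAT3cKO replicate 91, where it passed (adjusted p = 0.0229). DESeq2 called Myc on all 6 hearts (adjusted p = 0.0351), as did edgeR with no filter on low counts (0.00237).

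Genes around Myc gave 1 higher and 1 lower among 11 tested of 12 in the Myc, Max and Mxd network. Mlxipl, the carbohydrate-responsive factor ChREBP, rose to 34.7 ± 9.74 CPM in STAT3cKO hearts, against 18.2 ± 1.95 CPM in wild-type hearts (log2 fold change 0.93 ± 0.19, edgeR adjusted p = 0.00619). Mga, a repressive partner of Max with a long transcript, fell to 40.3 ± 2.60 CPM, against 64.5 ± 6.98 CPM in wild-type hearts (-0.68 ± 0.10, adjusted p = 0.000826), and did not pass with a correction for length and GC content (0.0676). With DESeq2, with limma-voom, with no filter on low counts and without STAT3cKO replicate 3, 2 of the network genes fell. Among 16 genes of ribosome biogenesis and growth that Myc is known to induce, 6 rose and 0 fell, with a median log2 fold change of 0.24. They included Gnl3, which encodes nucleostemin (log2 fold change 0.61), Nop56, a box C/D ribonucleoprotein component (0.53), Npm1, nucleophosmin (0.48), and Odc1, the first enzyme of polyamine synthesis (0.42). With scaling by library size only, 2 rose and 2 fell, and 2 to 6 rose when 1 heart was left out, the fewest without wild type replicate 3. Without wild type replicate 1 or STAT3cKO replicate 3, 3 rose, and without STAT3cKO replicate 91, 4 rose.

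Cebpd and Myc were highest in the same heart, and immediate-early genes, which respond within minutes to stimulation or handling of tissue, were high there too. The summed level of 12 such genes was 210, 367 and 255 CPM in STAT3cKO replicates 3, 6 and 91, against 185, 190 and 199 CPM in wild type replicates 1, 3 and 4. Of the 12, 6 rose in STAT3cKO hearts and 0 fell, and none was at 0 in any heart. Fosb stood at 0.682, 3.77 and 1.48 CPM in STAT3cKO replicates 3, 6 and 91, against 0.0515, 0.358 and 0.384 CPM in the wild-type hearts (log2 fold change 2.89 ± 0.73, edgeR adjusted p = 0.0171). Egr2 (log2 fold change 1.95), Atf3 (0.73) and Ier2 (0.51) rose too. Jun went the other way and did not pass (log2 fold change -0.30, edgeR adjusted p = 0.0667). It was at 42.2, 44.7 and 39.7 CPM in STAT3cKO replicates 3, 6 and 91, against 51.0, 44.9 and 59.9 CPM in wild type replicates 1, 3 and 4. The number of the 12 that rose was 4 without STAT3cKO replicate 6, 5 without STAT3cKO replicate 3 and 3 without STAT3cKO replicate 91. It was 1 without wild type replicate 1, 2 without wild type replicate 4 and 3 without wild type replicate 3 (where 1 fell). With a correction for length and GC content 2 rose, and with scaling by library size only 2 rose and 1 fell. With no filter on low counts 6 rose and 1 fell. Their part in the Cebpb, Cebpd and Myc values was not tested. Of 9 glucocorticoid-induced genes, 8 were tested and 0 were called (edgeR). Their summed levels were 726, 2302 and 629 CPM in STAT3cKO replicates 3, 6 and 91 and 913 to 995 CPM in wild-type hearts. Most of the sum in STAT3cKO replicate 6 came from Pdk4, whose values are given in the last section. At an unadjusted p under 0.05 there was 1 of the listed genes. DESeq2, edgeR without robust estimation and edgeR with no filter on low counts each called 1 as higher. The smallest p was for Tsc22d3, the leucine zipper gene GILZ (log2 fold change 0.50, edgeR adjusted p = 0.0939). Without STAT3cKO replicate 6, 3 of these genes fell, and without STAT3cKO replicate 3, 1 rose.

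**Figure D2:**
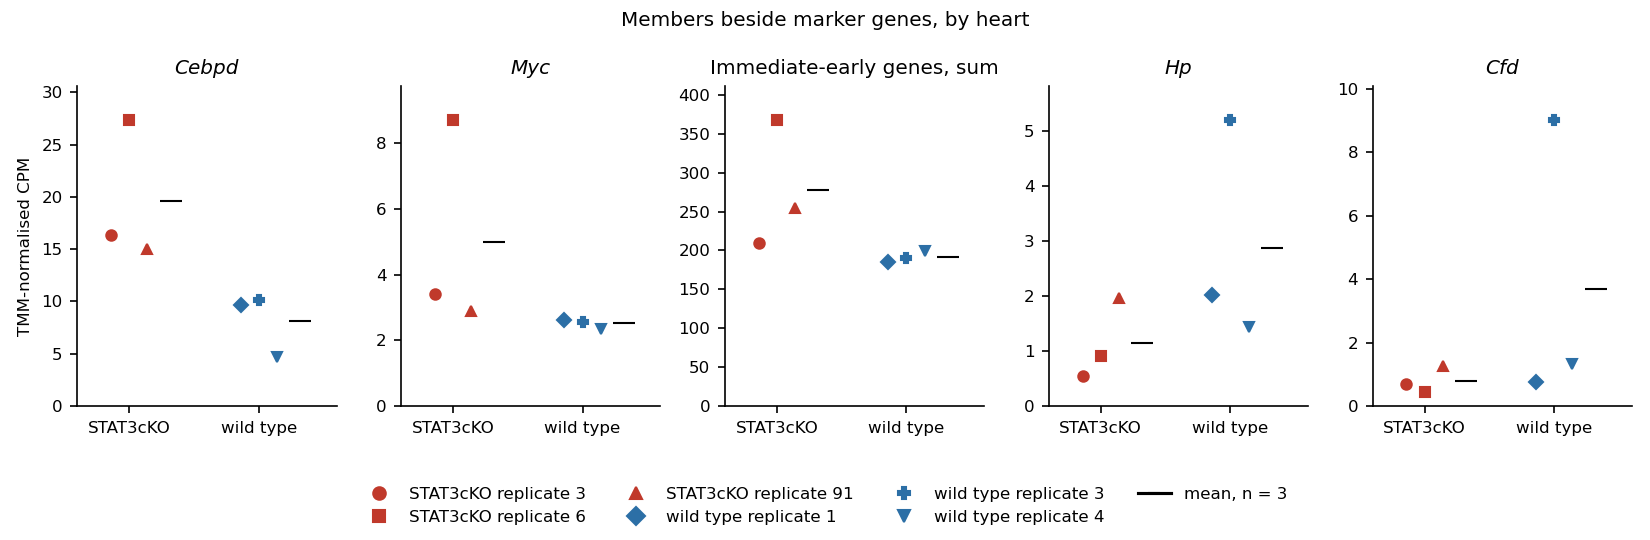
Levels in TMM-normalised CPM (vertical axes, each starting at 0) of Cebpd, Myc, the sum of 12 immediate-early genes, Hp and the fat-cell gene Cfd in each STAT3cKO heart (red) and wild-type heart (blue), with the group mean as a line. STAT3cKO replicate 6 is the highest heart for Cebpd (27.3 CPM), Myc (8.70 CPM) and the immediate-early sum (367 CPM), and wild type replicate 3 is the highest for Hp (5.19 CPM) and Cfd (9.01 CPM).

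Bcl3 encodes an unusual IkappaB protein that binds p50 and p52 dimers of NF-kappaB in the nucleus. Bcl3 stood at 2.32, 2.79 and 2.74 CPM in STAT3cKO replicates 3, 6 and 91, against 2.78, 3.94 and 4.50 CPM in wild type replicates 1, 3 and 4. Wild type replicate 1 lay within the STAT3cKO range and the other wild-type hearts above it. The log2 fold change of -0.51 ± 0.25 (SE; 95% interval -1.05 to 0.04) did not pass (edgeR adjusted p = 0.155). The raw counts were low, 34 to 50 in STAT3cKO hearts and 54 to 82 in wild-type hearts. Among 14 other NF-kappaB and IkappaB genes, 13 were tested, 0 rose and 1 fell, and 1 rose with a correction for length and GC content. The 1 was Rel, the c-Rel subunit of immune cells, at 3.11 ± 0.502 CPM in STAT3cKO hearts and 7.06 ± 2.59 CPM in wild-type hearts (log2 fold change -1.18 ± 0.26, edgeR adjusted p = 0.00662).

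Pim1 encodes a constitutively active serine/threonine kinase that promotes survival of cardiomyocytes. Pim1 stood at 20.2, 18.8 and 17.6 CPM in STAT3cKO replicates 3, 6 and 91, against 18.6, 26.9 and 22.7 CPM in wild type replicates 1, 3 and 4. The STAT3cKO hearts lay close together and overlapped the lowest wild-type heart. Its log2 fold change was -0.27 ± 0.14 (SE; 95% interval -0.56 to 0.03; edgeR adjusted p = 0.167), and it was -0.13 without wild type replicate 3 (adjusted p = 0.543). Neither Pim2 nor Pim3, its paralogues, was called by edgeR, Pim2 being at -0.18 on the log2 scale (adjusted p = 0.690). Pim1 overlaps the antisense transcript Gm26885 and Bcl3 overlaps Gm16174, which held at most 9 and 4 counts in any heart.

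Serpina3n encodes a secreted serine protease inhibitor, a mouse relative of human alpha-1-antichymotrypsin. Serpina3n stood at 23.3, 26.1 and 69.9 CPM in STAT3cKO replicates 3, 6 and 91, against 16.9, 17.5 and 6.58 CPM in wild type replicates 1, 3 and 4. Every STAT3cKO heart was above every wild-type heart, yet STAT3cKO replicate 91 was 3.005 times the lowest STAT3cKO heart and the wild-type hearts also differed 2.66-fold. The log2 fold change of 1.55 ± 0.66 (SE; 95% interval -0.25 to 3.34) was the largest in size of the 10 genes and did not pass (edgeR adjusted p = 0.173). It was 0.86 without STAT3cKO replicate 91 (adjusted p = 0.296). limma-voom (adjusted p = 0.0304) and edgeR without robust estimation (0.0244) called it. Serpina3n has close paralogues on chromosome 12, and how reads that map to several places were treated is not given in the sources used here. Of 10 paralogues, 4 had no count in any heart, and all 10 together summed to 1.91 to 4.22 CPM in STAT3cKO hearts and 1.54 to 3.45 CPM in wild-type hearts.

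Lcn2 encodes lipocalin 2, which binds bacterial siderophores and is stored in neutrophil granules. Lcn2 stood at 2.39, 2.66 and 2.85 CPM in STAT3cKO replicates 3, 6 and 91, against 2.63, 2.51 and 3.13 CPM in wild type replicates 1, 3 and 4. The groups overlapped, and the difference did not pass (log2 fold change -0.06 ± 0.24 SE, edgeR adjusted p = 0.871). Its 95% interval of -0.59 to 0.46 leaves room for changes of that size at counts of 35 to 57. Of 12 neutrophil markers, 3 were tested and 1 rose, S100a8 (log2 fold change 2.01, edgeR adjusted p = 0.0137), and all 12 summed to 9.14, 14.6 and 12.5 CPM in STAT3cKO replicates 3, 6 and 91, against 8.03, 7.93 and 1.97 CPM in the wild-type hearts. With DESeq2, with no filter on low counts and without STAT3cKO replicate 3 or wild type replicate 1, 2 of them rose, and 0 did with the stricter filter. Ly6g, a defining neutrophil marker, had no count in any STAT3cKO heart and 1 count in all wild-type hearts together. The part of neutrophil content in the Lcn2 values was not tested. The receptor genes of lipocalin 2 differed in direction. Slc22a17 rose to 6.92 ± 0.616 CPM in STAT3cKO hearts, against 3.79 ± 0.831 CPM in wild-type hearts (log2 fold change 0.87 ± 0.21, edgeR adjusted p = 0.00933). Lrp2 fell to 0.259 ± 0.168 CPM in STAT3cKO hearts, against 1.14 ± 0.106 CPM in wild-type hearts (-2.07 ± 0.51, edgeR adjusted p = 0.0111). The fall of Lrp2 rests on few counts, 1, 5 and 7 in STAT3cKO replicates 3, 6 and 91 and 21, 18 and 23 in wild type replicates 1, 3 and 4.

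Hp encodes haptoglobin, which binds free haemoglobin and is made by liver and fat cells. Hp stood at 0.546, 0.909 and 1.97 CPM in STAT3cKO replicates 3, 6 and 91, against 2.01, 5.19 and 1.43 CPM in wild type replicates 1, 3 and 4. STAT3cKO replicate 91 lay between the lower wild-type hearts, and wild type replicate 3 was far above the rest. The log2 fold change of -1.28 ± 0.58 (SE; 95% interval -2.61 to 0.04) did not pass (edgeR adjusted p = 0.141), and it was -0.56 without wild type replicate 3 (adjusted p = 0.452) and -1.95 without STAT3cKO replicate 91 (0.0525). DESeq2 called it (adjusted p = 0.0470), as did edgeR with no filter on low counts (0.00170). Counts were 8, 14 and 36 in STAT3cKO hearts and 39, 87 and 26 in wild-type hearts. Of 10 fat-cell markers, 2 were tested and 0 were called by edgeR, and 3 fell with no filter on low counts. All 10 summed to 814, 812 and 692 CPM in STAT3cKO replicates 3, 6 and 91. In wild type replicates 1, 3 and 4 they summed to 784, 613 and 595 CPM. Most of that sum was Fabp4, which heart endothelium also expresses. The fat-cell markers other than Fabp4 were highest in wild type replicate 3. They summed to 1.09, 1.36 and 2.08 CPM in STAT3cKO replicates 3, 6 and 91, against 2.37, 16.5 and 3.78 CPM in wild type replicates 1, 3 and 4. Cfd, adipsin, held 10, 7 and 23 counts in STAT3cKO hearts and 15, 151 and 24 in wild-type hearts, and Adipoq 2, 7 and 3 against 6, 27 and 7. The part of fat-cell markers in the Hp values was not tested. The 10 hepatocyte markers summed to 6.41, 4.87 and 7.01 CPM in STAT3cKO replicates 3, 6 and 91, against 7.05, 15.7 and 5.05 CPM in wild type replicates 1, 3 and 4, so their sum too was highest in wild type replicate 3. Of these markers 3 were tested and 0 were called by edgeR, DESeq2 or limma-voom, with 0 at an unadjusted p under 0.05 in edgeR. Most of the sum came from Ahsg, which encodes the plasma protein fetuin-A, at 2.99 to 4.93 CPM in STAT3cKO hearts and 2.85 to 7.28 CPM in wild-type hearts, and, in wild type replicate 3, from Cyp2e1, a cytochrome P450 of liver, at 7.58 CPM there. Alb, which defines hepatocytes, had no count in STAT3cKO hearts and 1 in all wild-type hearts together, and Apob none in any heart. The part of hepatocyte markers in the Hp values was not tested.

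Cd163 encodes the macrophage receptor that takes up haptoglobin bound to haemoglobin. It fell to 11.3 ± 2.59 CPM in STAT3cKO hearts, against 36.3 ± 3.46 CPM in wild-type hearts (SD, n = 3 each; log2 fold change -1.68 ± 0.16, edgeR adjusted p = 6.03e-05). Macrophage markers as a list summed to 255, 294 and 407 CPM in STAT3cKO replicates 3, 6 and 91 and to 525, 453 and 420 CPM in wild type replicates 1, 3 and 4, with 6 of 12 lower, 0 higher and no marker at 0. Within the STAT3cKO hearts, replicate 91 had the highest summed macrophage markers and the highest Serpina3n, Hp, Lbp, Lcn2 and Fgl2. Replicate 3 had the lowest of each. Fibroblast markers (1904, 2222 and 2688 CPM in STAT3cKO replicates 3, 6 and 91) and mesothelial markers (12.7, 22.0 and 25.8 CPM) had that order too. In wild type replicates 1, 3 and 4 the fibroblast markers summed to 1671, 2217 and 1488 CPM and the mesothelial markers to 32.8, 28.1 and 32.3 CPM. Among wild-type hearts the macrophage and mesothelial sums were thus highest in replicate 1 and the fibroblast sum in replicate 3. Serpina3n, Hp, Lbp and Fgl2 were highest there in replicate 3 and Lcn2 in replicate 4. Of 10 fibroblast markers, 1 was higher and 3 were lower in STAT3cKO hearts (edgeR adjusted p under 0.05). Of 7 mesothelial markers, 6 were tested, 0 were higher and 1 was lower. The part of macrophage, fibroblast or mesothelial content in the values of these genes was not tested.

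Lbp encodes the protein that carries bacterial LPS to CD14 and the TLR4 and MD-2 receptor complex. Lbp stood at 7.85, 9.93 and 14.0 CPM in STAT3cKO replicates 3, 6 and 91, against 8.70, 8.83 and 7.84 CPM in wild type replicates 1, 3 and 4. The wild-type hearts lay within the STAT3cKO range apart from a small margin at its lower end, and STAT3cKO replicate 91 was highest. The log2 fold change of 0.33 ± 0.19 (SE; 95% interval -0.09 to 0.75) did not pass (edgeR adjusted p = 0.226), and it was 0.08 without STAT3cKO replicate 91 (adjusted p = 0.782) and 0.50 without STAT3cKO replicate 3 (0.0739). Its partner Cd14 fell to 5.33 ± 1.10 CPM in STAT3cKO hearts, against 8.86 ± 1.09 CPM in wild-type hearts (log2 fold change -0.73 ± 0.19, edgeR adjusted p = 0.0146), a call lost without STAT3cKO replicate 3 (0.0562) or wild type replicate 1 (0.0637). Tlr4 (log2 fold change 0.41, adjusted p = 0.146) and Ly96, which encodes MD-2 (0.12, adjusted p = 0.780), did not pass.

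Fgl2 encodes a fibrinogen-like protein that cleaves prothrombin at the surface of macrophages and endothelium and is secreted by regulatory T cells. Fgl2 stood at 48.2, 75.4 and 76.2 CPM in STAT3cKO replicates 3, 6 and 91, against 62.5, 70.1 and 64.5 CPM in wild type replicates 1, 3 and 4. The wild-type hearts lay inside the STAT3cKO range. Its difference on the log2 scale was 0.02 ± 0.16 (SE; edgeR adjusted p = 0.931), with a 95% interval of -0.33 to 0.37, and its sign changed with the scaling and with the heart left out. Fgl2 lies inside Ccdc146, on the opposite strand, which held 60 to 84 counts in any heart against 707 to 1392 for Fgl2. Fcgr2b, an inhibitory Fc receptor that binds soluble Fgl2 protein, fell to 10.3 ± 1.30 CPM in STAT3cKO hearts, against 14.8 ± 2.50 CPM in wild-type hearts (log2 fold change -0.52 ± 0.15, edgeR adjusted p = 0.0252), a call lost without STAT3cKO replicate 3 (0.0977) or wild type replicate 1 (0.119). Of 10 endothelial markers, 6 fell and 0 rose (1 rose without STAT3cKO replicate 6), and their sum was 920 to 995 CPM in STAT3cKO hearts and 1333 to 1521 CPM in wild-type hearts. The part of endothelial content in the Fgl2 values was not tested.

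Of 29 further acute-phase genes, 23 had too few counts to be tested, among them 8 with none in any heart. Of the 6 tested, 0 rose and 3 fell, with a median log2 fold change of -0.43. They were Itih4, an inter-alpha-trypsin inhibitor heavy chain (log2 fold change -1.78, edgeR adjusted p = 0.0207), Steap4, a metalloreductase (-0.60, adjusted p = 0.00171), and Cd14. Itih4 did not pass with limma-voom (0.0617) or without STAT3cKO replicate 3 (0.0657), STAT3cKO replicate 91 (0.0730) or wild type replicate 3 (0.0986). The number that fell was 1 without STAT3cKO replicate 3 and 2 without wild type replicate 1 or 3. Saa3, a serum amyloid A of tissues outside the liver, held at most 5 counts in any heart. Of 17 other genes that STAT3 is known to induce, 2 rose, 1 fell and 14 did not pass, with a median log2 fold change of 0.19. Junb, a Fos partner, rose (log2 fold change 1.10, edgeR adjusted p = 0.0160, and 0.0775 with a correction for length and GC content), as did Vegfa, the main endothelial growth factor (0.80, adjusted p = 0.000379), and Ccnd1, cyclin D1, fell (-0.54, adjusted p = 0.00330). Without STAT3cKO replicate 3, 4 of the 17 rose, Hif1a and Fos besides Junb and Vegfa, and with scaling by library size only 2 fell. The Junb call was lost without STAT3cKO replicate 91 (0.0527) or wild type replicate 3 (0.0553) or 4 (0.0700).

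**Figure D3:**
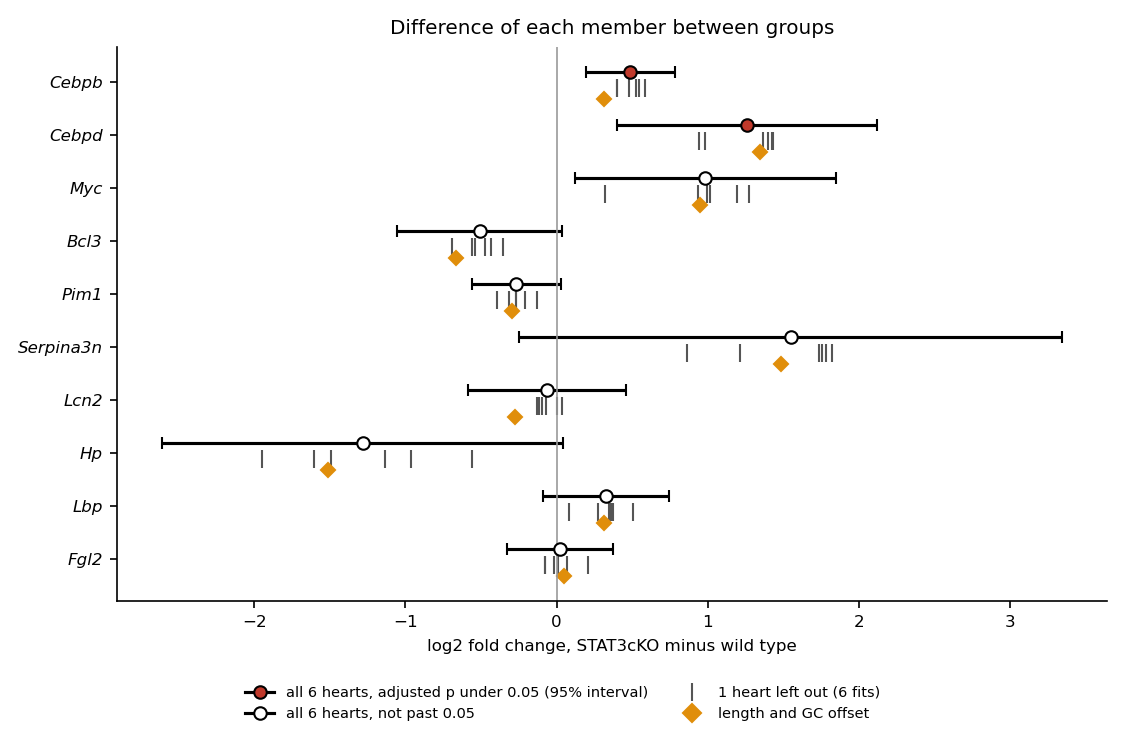
Log2 fold change of each of the 10 genes, STAT3cKO minus wild type (horizontal axis), with its 95% interval from edgeR, filled where the adjusted p was under 0.05. Grey ticks give the fits that leave out 1 heart and diamonds the fit with a correction for length and GC content, and Cebpb and Cebpd are the filled points at 0.49 and 1.26.

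The order of the 10 genes by level was read in TPM, which scales counts by library size and by the median length of the gene's annotated transcripts. In STAT3cKO hearts the highest were Serpina3n at 27.0 ± 18.4 TPM, Fgl2 at 24.5 ± 5.93 TPM and Pim1 at 21.8 ± 1.31 TPM (SD, n = 3). In wild-type hearts they were Pim1 at 29.4 ± 5.93 TPM and Fgl2 at 27.0 ± 2.15 TPM, with Serpina3n at 10.3 ± 4.66 TPM in the fourth place. The lowest were Hp at 1.997 ± 1.34 TPM in STAT3cKO hearts and Myc at 2.18 ± 0.124 TPM in wild-type hearts. Of 9 neighbouring pairs in the order, 3 had ranges that did not overlap in STAT3cKO hearts (Pim1 over Cebpb, Lbp over Bcl3 and Bcl3 over Lcn2) and 2 in wild-type hearts (Fgl2 over Cebpb and Lcn2 over Myc). The other neighbours did not differ beyond their spread. With the longest transcript as the length, 6 of the 10 genes kept their place in STAT3cKO hearts and 4 in wild-type hearts. Serpina3n and Fgl2 were then the highest in STAT3cKO hearts and Fgl2 and Pim1 in wild-type hearts. In STAT3cKO hearts Pim1 was then below Cebpb (means of 21.4 and 34.9 TPM) and Bcl3 below Lcn2 (4.33 and 5.87 TPM). The order within these pairs therefore depends on the length used.

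**Figure D4:**
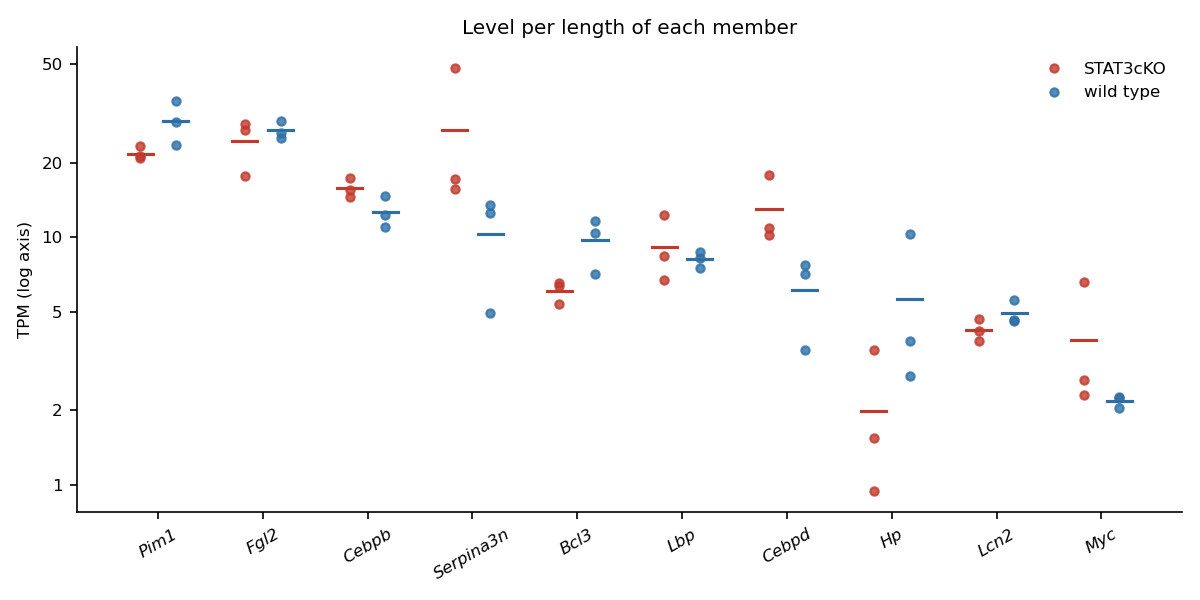
Level of each of the 10 genes in TPM (vertical log axis) in the 3 STAT3cKO hearts (red, left of each pair) and the 3 wild-type hearts (blue), with the group mean as a line, ordered by the wild-type mean. Pim1 and Fgl2 lead in wild-type hearts at 29.4 and 27.0 TPM, and Serpina3n reaches 48.2 TPM in 1 STAT3cKO heart.

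Individual hearts differed across the 10 genes as well. STAT3cKO replicate 91 was the highest STAT3cKO heart for 5 of them and replicate 6 for 4, while replicate 3 was the lowest for 7. Wild type replicate 3 was the highest wild-type heart for 7 and replicate 4 the lowest for 6. For each of the 10 genes, the gene most like it over the 6 hearts by Pearson's r of log2 CPM was Gm12657 for Serpina3n, Ust for Lcn2, Efhd1 for Hp, Gm10509 for Lbp and Suv39h1 for Fgl2. It was Ppp2r3c for Cebpb, Krtcap2 for Cebpd, Dtx3l for Bcl3, Rassf8 for Pim1 and Zc3h14 for Myc. These r lay between 0.988 and 0.999 with 6 points each, and 28 to 461 genes had an r over 0.9 with a given member.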

How the data were processed

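Libraries were made from Trizol-extracted total RNA, per the labels' protocols. HISAT2 and the mouse build GRCm38 were used, per the submitters' processing notes, and the counting program, annotation and strand setting were not stated in those notes or the labels. The deposited values are raw counts, whole numbers for each gene symbol and heart that the authors had not normalised. With edgeR 4.0.16, genes were filtered by filterByExpr (minimum count 10), scaled by TMM and compared with the robust quasi-likelihood F test in R 4.3.3, with genotype as the only term and Benjamini-Hochberg adjustment over all genes tested. Standard errors come from the F statistic and the log2 fold change, and 95% intervals use the t distribution of that test. The fits were run on simulated counts with no trend on transcript length or GC content, so that check does not cover the trend seen here. Transcript lengths came from GENCODE M21 for 73.7% of symbols (93.8% of genes tested). For the correction for length and GC content, a spline trend (5 degrees of freedom) of log2 CPM on the length and GC content of the longest transcript was fitted to each heart and used as an offset. Alternatives included DESeq2 1.42.0 and limma 3.58.1 (voom). The 10 genes and all lists were chosen with earlier results of these data known. Genes beyond the 10 are, per list, up to 4 that passed the threshold of 0.05, taken in order of p, or the first in that order where none passed, and Cebpa, Ddit3, Tlr4, Ly96, Saa3, Cfd, Adipoq, Alb, Apob, Ahsg, Cyp2e1, Hif1a, Fos, Jun, Ly6g and those in the last section were named after their values were seen.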

Additional observations from a re-analysis of the deposited data

How the results depend on the processing

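With scaling by library size only, 1 of the 10 genes was called, and with the correction for length and GC content 1 was called. With no filter on low counts 4 were called, and with the DESeq2 Wald test 4. Leaving out 1 heart at a time gave 0 to 2 calls among the 10 and 2435 to 3886 calls among all genes, against 3738 with all hearts, the fewest without wild type replicate 4. Library size only gave 1109 higher and 2714 lower genes, against 1918 and 1820 with TMM, and put the median of all genes at -0.11 on the log2 scale. The Fgl2 log2 fold change, 0.02 with TMM, was -0.088 with library size only, -0.00015 with no filter on low counts and -0.0051 with limma-voom, and -0.079 to 0.21 with 1 heart left out. That of Lcn2, -0.06 with all hearts, was -0.13 to 0.038 with 1 heart left out. The cause of these shifts was not tested. Stat3 was lower and past the threshold in every alternative run, with log2 fold changes of -0.80 to -0.43. Cebpb passed in 11 of 16 alternatives and Cebpd in 11 of 16. No paired analysis was possible because the groups share a single replicate number, 3. Counts under 100 limit Lcn2, Hp and Bcl3 in every heart and Myc in all but STAT3cKO replicate 6, and 3 hearts a group limit every comparison. When 1 heart is left out, its group has 2.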

Other observations

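Single STAT3cKO hearts stood apart in 3 further listed genes, named after their values were seen. Timp1, a metalloproteinase inhibitor, was at 2.32, 3.25 and 9.69 CPM in STAT3cKO replicates 3, 6 and 91, against 2.88, 2.57 and 2.25 CPM in wild type replicates 1, 3 and 4 (edgeR adjusted p = 0.200). Nfkbia, the NF-kappaB inhibitor IkappaB-alpha, was at 29.8, 67.2 and 23.4 CPM in the same STAT3cKO hearts, against 28.3, 29.3 and 20.5 CPM in the wild-type hearts (edgeR adjusted p = 0.404). Pdk4, a kinase that limits glucose oxidation, was at 393, 1584 and 321 CPM in the STAT3cKO hearts, against 517, 604 and 596 CPM in the wild-type hearts (edgeR adjusted p = 0.721).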
